A study of Mus musculus with 12 samples.

Results

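Iron-sulfur cluster biogenesis genes encode the proteins that build iron-sulfur clusters in mitochondria and pass them to the enzymes that need them. The 9 genes described here, *Nfs1*, *Iscu*, *Hscb*, *Glrx5*, *Isca1*, *Isca2*, *Iba57*, *Nfu1* and *Bola3*, were chosen by symbol from the 24824 genes of the expression table, and each had a row. Of these, 8 passed the filter of a mean of at least 1 FPKM (fragments per length of the gene and per total of the library) over the 12 libraries, as did 10615 genes in all. *Iba57*, with a mean of 0.699 FPKM, did not, and its tests come from a fit without a filter.

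Iron-sulfur clusters are cofactors of aconitase, of respiratory complexes I, II and III, of lipoic acid synthase and of several enzymes of DNA and RNA metabolism. In mitochondria the cysteine desulfurase NFS1 supplies sulfur to the scaffold ISCU, on which a [2Fe-2S] cluster is made. The co-chaperone HSCB brings the loaded scaffold to the chaperone HSPA9, and the cluster passes to the glutaredoxin GLRX5. ISCA1, ISCA2 and IBA57 then take part in making [4Fe-4S] clusters, which NFU1 and BOLA3 help to place in client proteins. Copper ions can displace iron at such sites, and FDX1, the ferredoxin tied to copper-induced cell death, carries a cluster of this kind itself.

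The cells were AML12, an immortalized hepatocyte line of the mouse, labelled wild type. Cells of group A were kept in standard growth medium. Those of group B were exposed to 300 μM CuCl2 and 40 nM elesclomol (ES), an ionophore that carries copper into cells, together called Cu/ES. In group C, 1000 μM taurocholic acid (TCA), a conjugated bile acid, was added to the same Cu/ES, and in group D the same dose of TCA was given alone, in each case over 24 h. There were 3 libraries of polyadenylated RNA per group. The labels do not say whether these were separate cultures, so p-values measure the spread between these libraries, which may be technical. The FPKM values corresponded to whole numbers of reads, and the recovered totals ran from 29112016 reads in group C to 39772245 in group D. The lowest correlation between libraries of 1 group, rounded, was r = 0.991 across genes. Of the hepatocyte markers, *Krt8* and *Krt18*, keratins that other epithelial cells also make, stood at 344 ± 37.7 and 285 ± 22.7 FPKM (SD, n = 3) in group A, whereas *Alb* (albumin) and *Hnf4a* (a hepatocyte transcription factor) were listed at 0 in all 3 of its libraries. The summed level of the 6 hepatocyte markers in the table spanned 596 to 649, 236 to 287, 172 to 209 and 697 to 717 FPKM in groups A, B, C and D. Summed stellate or fibroblast markers ran from 19.7 to 36.6 FPKM in group A and from 1.41 to 2.70 in group B, cholangiocyte markers from 230 to 326 and from 111 to 140, and endothelial markers from 0.882 to 1.06 and from 6.42 to 10.2, with 16.0 to 19.2 in group C. The sums hide members that went the other way. Between groups A and B the mean of *Krt19* went from 268 to 77.3 FPKM while that of *Sox9*, also a cholangiocyte marker, went from 10.6 to 50.9 FPKM, and *Trf* and *Apoa1* of the hepatocyte list went from under 0.01 to 0.718 and 1.86 FPKM. Leukocyte markers summed to at most 0.0976 FPKM in any library. The part of these shifts in the results on cluster genes was not tested.

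In untreated cells the levels of the 9 genes spanned from 0.792 ± 0.123 FPKM for *Iba57* to 31.1 ± 2.04 FPKM for *Isca2* (mean ± SD, n = 3). After *Isca2* came *Isca1*, *Nfu1*, *Glrx5* and *Nfs1*, at means of 17.8 to 21.5 FPKM, and each of these overlapped its neighbour in the order. *Hscb*, *Iscu*, *Bola3* and *Iba57* followed without overlap. Under Cu/ES the order was another one. *Glrx5* led in groups B and C, followed by *Isca1* and *Isca2*, and *Nfu1* moved from rank 3 in group A to rank 7 in group B and rank 6 in group C. Because FPKM is scaled by gene length, these levels can be set side by side across genes.

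**Figure D1:**
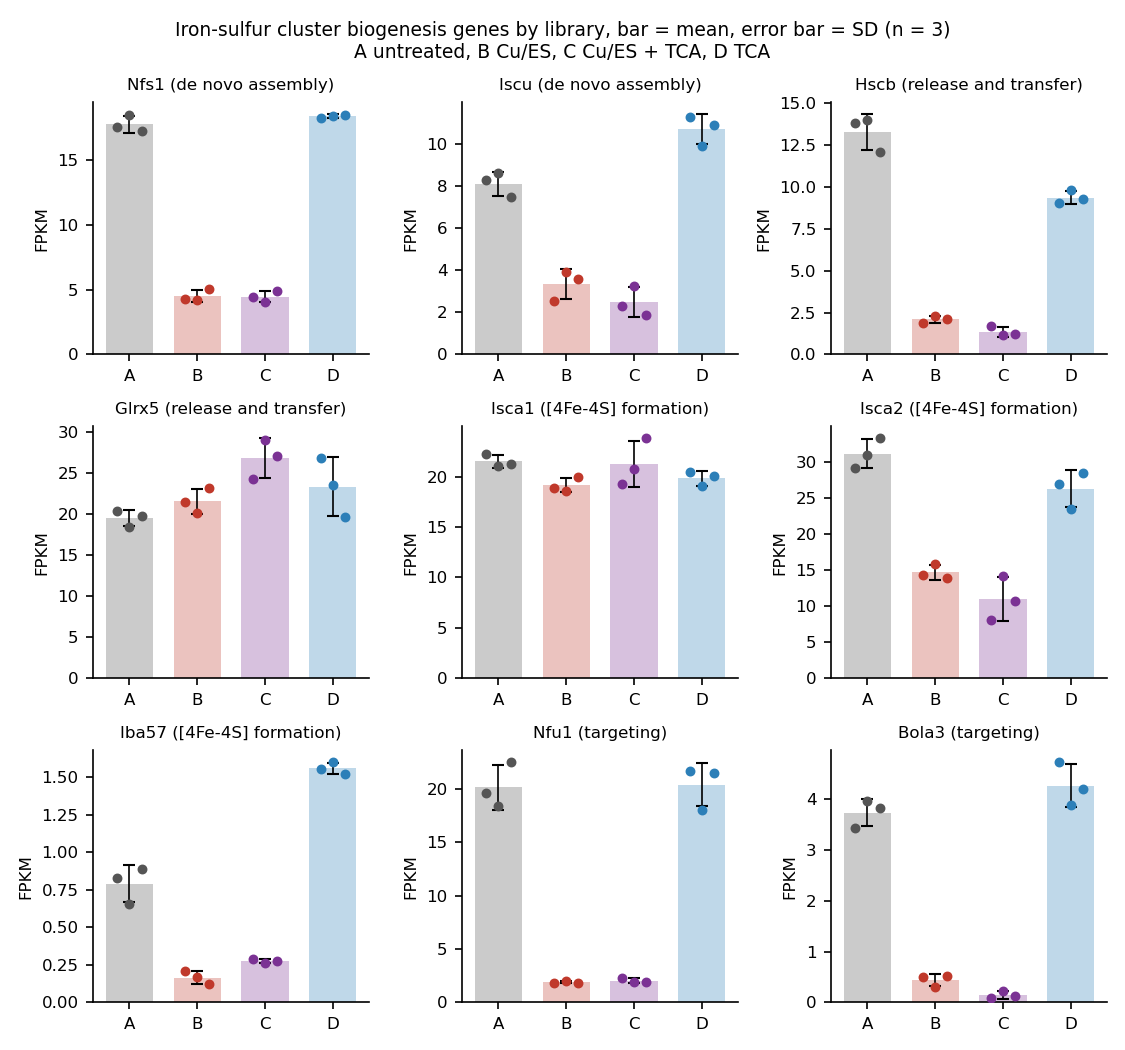
FPKM of the 9 iron-sulfur cluster biogenesis genes (y axis, linear, from 0) in groups A, B, C and D (x axis), with a point for each library, bars at the mean and error bars of 1 SD (n = 3). In 7 of the genes all libraries of groups B and C lie below all libraries of groups A and D, while *Glrx5* and *Isca1* stay near 20 FPKM or above it in every group. Between groups B and A alone, 72.4% of all genes tested were lower without overlap.

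The comparison of group B with group A addressed what Cu/ES did to these transcripts. No group received CuCl2 or ES alone, so their parts cannot be told apart. Here 6 of the 8 genes tested fell past both thresholds (adjusted p under 0.05, and over 1 on the log2 scale), the 6 being *Nfs1*, *Iscu*, *Hscb*, *Isca2*, *Nfu1* and *Bola3*. Over all genes tested, 53.0% fell past both thresholds and 10.1% rose. The median log2 fold change was -1.40 for the 8 genes and -1.10 for all genes tested. *Iba57* fell in the fit without a filter. The levels of *Glrx5* and *Isca1* did not pass. In bulk samples such as these, fewer cells of a type and less RNA per cell cannot be told apart. Fold changes are on the scale of log2(FPKM + 1), which understates those of genes with low values, and all p-values below are two-sided, from limma with Benjamini-Hochberg adjustment over all genes of the fit.

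*Nfs1*, the desulfurase at the start of the pathway, had 17.6, 18.5 and 17.3 FPKM in group A and 4.26, 4.24 and 5.06 FPKM in group B. Every group B library was lower than every group A library, and the means differed 3.93-fold. The change was -1.77 ± 0.08 on the log2 scale (SE, limma, adjusted p = 3.18e-11). *Iscu*, the scaffold, had 8.27, 8.60 and 7.48 FPKM in group A and 2.55, 3.93 and 3.58 FPKM in group B, again without overlap. Its mean was 2.42-fold lower, and its change of -1.08 ± 0.14 on the log2 scale (SE, limma, adjusted p = 4.54e-06) was close to that of the median gene. Without B replicate 1 it was -0.94 and no longer past the fold threshold.

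*Hscb*, which hands the scaffold to the chaperone, had 13.8, 13.97 and 12.1 FPKM in group A and 1.88, 2.27 and 2.13 FPKM in group B. The groups stood 6.34-fold apart, with a change of -2.21 ± 0.10 on the log2 scale (SE, limma, adjusted p = 2.38e-11). *Glrx5*, the glutaredoxin that receives the cluster, had 20.4, 18.4 and 19.8 FPKM in group A and 21.4, 20.1 and 23.2 FPKM in group B. These libraries overlapped. The log2 difference was 0.13 with a 95% interval from -0.09 to 0.36 (limma, adjusted p = 0.223), which leaves room for a small change either way and lies 1.23 above the median of all genes. The steps next to each other in this handover thus had unlike values.

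Among the genes for [4Fe-4S] cluster formation, *Isca1* had 22.3, 21.0 and 21.2 FPKM in group A and 18.9, 18.6 and 19.9 FPKM in group B. All group B libraries were lower, but the log2 difference of -0.16 (95% interval -0.32 to 0.00, limma, adjusted p = 0.0573) did not pass. *Isca2*, whose protein works with that of *Isca1*, had 29.2, 30.9 and 33.3 FPKM in group A and 14.3, 15.9 and 13.9 FPKM in group B. It fell 2.12-fold, a change of -1.03 ± 0.14 on the log2 scale (SE, limma, adjusted p = 7.64e-06), and missed the fold threshold narrowly without A replicate 3 (-0.986) or B replicate 3. *Iba57*, which encodes a folate-binding protein of the same step, had 0.832, 0.655 and 0.891 FPKM in group A and 0.207, 0.168 and 0.123 FPKM in group B. They came from 128 to 175 reads a library in group A and 19 to 33 in group B. The mean was 4.77-fold lower, and the change in the fit without a filter was -0.62 ± 0.06 on the log2 scale (SE, limma, adjusted p = 4.06e-06), against -2.25 with limma-voom on the recovered reads, which adds no pseudocount of 1 FPKM (with a filter on reads chosen after the data were seen).

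The genes for delivery to clients fell furthest by fold of the means. *Nfu1*, which carries [4Fe-4S] clusters to enzymes such as lipoic acid synthase, had 19.7, 18.4 and 22.5 FPKM in group A and 1.85, 1.996 and 1.82 FPKM in group B. It was 10.7-fold lower, with a change of -2.87 ± 0.10 on the log2 scale (SE, limma, adjusted p = 1.66e-12). *Bola3*, the partner of *Nfu1* in this step, had 3.43, 3.95 and 3.81 FPKM in group A and 0.507, 0.311 and 0.512 FPKM in group B. The groups lay 8.41-fold apart, with a change of -1.71 ± 0.09 on the log2 scale (SE, limma, adjusted p = 2.33e-10) and 31 to 50 reads per library in group B. Of the 9 genes, 8 had groups B and A without overlap, all lower in group B, as 72.4% of all genes tested were.

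The FPKM scale sets each library to the same total, and Cu/ES moved the median gene by -1.10, so the direction of a gene depends on the reference. With median-ratio scaling, which brings that median to 0.01, *Nfu1* (-1.76) and *Hscb* (-1.10) still fell past both thresholds, while *Nfs1* (-0.57) and *Bola3* (-0.97) passed the adjusted p alone. *Glrx5* (1.41) and *Isca1* (1.11) rose past both thresholds under it, and *Iscu* (0.04) and *Isca2* (0.25) turned positive without passing. On that scale 24.5% of all genes fell past both thresholds and 26.9% rose, and at the adjusted p alone 43.8% fell and 44.0% rose. With quantile normalization only *Nfu1* (-1.72) of the 6 passed both thresholds, where 2353 of the 10615 genes tested fell past both and 2198 rose. The order of the genes by log2 fold change had *Nfu1* and *Hscb* lowest and *Glrx5* and *Isca1* highest with FPKM and with median-ratio scaling. Both add a pseudocount of 1. With limma-voom on the recovered reads (filter on reads chosen after the data were seen) *Nfu1* (-3.41) stayed lowest, and *Bola3* (-3.09) lay below *Hscb* (-2.65).

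Promoter sequences are shown for *Nfu1* and *Nfs1*, which fell, and for *Isca1* and *Glrx5*, which did not pass on the FPKM scale. They were picked after the values were seen. The windows of 300 bases, from 250 before to 50 after the annotated start, are those of RefSeq on build GRCm38.p6, and 7 of the 9 genes matched an entry. *Hscb* and *Iscu* did not. *Bola3*, *Isca2* and *Iba57*, which also fell on the FPKM scale, did, but their windows are not shown. Each window shown is printed 5′ to 3′ on the strand of its gene. Capitals mark matches on either strand to the NRF1 element (GCGC, any 2 bases and GCGC again), bound by a factor known for nuclear genes of mitochondria, and to the ETS element (CCGGAAG). *Nfs1* lies on the minus strand at chr2:156144137-156144436, *Nfu1* on the plus strand at chr6:87009586-87009885, *Isca1* on the minus strand at chr13:59769740-59770039 and *Glrx5* on the plus strand at chr12:105032368-105032667.
Nfs1: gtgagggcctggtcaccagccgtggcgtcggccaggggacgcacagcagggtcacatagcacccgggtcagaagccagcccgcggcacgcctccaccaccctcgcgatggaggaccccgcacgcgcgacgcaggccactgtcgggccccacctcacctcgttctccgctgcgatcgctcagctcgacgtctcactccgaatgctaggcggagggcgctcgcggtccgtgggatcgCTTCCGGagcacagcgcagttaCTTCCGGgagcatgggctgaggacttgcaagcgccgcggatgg
Nfu1: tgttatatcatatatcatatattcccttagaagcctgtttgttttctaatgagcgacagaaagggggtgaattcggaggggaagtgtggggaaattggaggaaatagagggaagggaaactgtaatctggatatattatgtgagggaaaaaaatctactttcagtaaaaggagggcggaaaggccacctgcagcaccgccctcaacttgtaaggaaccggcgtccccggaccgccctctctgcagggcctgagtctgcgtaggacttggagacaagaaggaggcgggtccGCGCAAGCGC
Isca1: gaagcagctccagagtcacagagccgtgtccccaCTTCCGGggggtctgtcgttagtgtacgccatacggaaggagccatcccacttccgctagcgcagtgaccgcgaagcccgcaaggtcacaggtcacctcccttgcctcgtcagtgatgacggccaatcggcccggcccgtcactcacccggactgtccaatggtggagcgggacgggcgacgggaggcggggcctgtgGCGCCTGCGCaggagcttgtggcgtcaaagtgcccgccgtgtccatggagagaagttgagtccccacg
Glrx5: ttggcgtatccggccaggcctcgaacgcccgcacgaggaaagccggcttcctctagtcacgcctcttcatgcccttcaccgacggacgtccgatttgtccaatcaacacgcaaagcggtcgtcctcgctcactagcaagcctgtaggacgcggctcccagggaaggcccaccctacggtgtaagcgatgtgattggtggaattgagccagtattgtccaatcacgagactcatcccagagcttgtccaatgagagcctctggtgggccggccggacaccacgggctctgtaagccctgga

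The *Nfs1* window held 2 ETS elements, that of *Nfu1* held 1 NRF1 element at its end, and that of *Isca1* held 1 of each, while the *Glrx5* window held neither. Among all 32851 promoter windows of this length, 6.23% held an NRF1 element and 8.86% an ETS element. No window of these 4 genes held the heat shock element (GAANNTTC or TTCNNGAA), present in 15.1% of all windows, or the metal response element (TGCACNC or TGCGCNC), present in 25.7%. Among the other matched members, windows of *Bola3* held the former, and windows of *Bola3* and *Iba57* held the latter. The antioxidant response element (TGANNNNGC), not marked above, stood in 41.3% of all windows. It was found 2 times for *Nfs1*, 1 for *Nfu1*, 2 for *Isca1* and 1 for *Glrx5*. Windows of *Bola3* and *Iba57* held it too, and that of *Isca2* did not. The windows of *Nfs1*, *Isca1*, *Glrx5* and *Nfu1* had 35, 27, 24 and 13 CpG dinucleotides, against a median of 7 (interquartile range 3 to 20) over all windows. An ETS or NRF1 element thus stood both in windows of genes that fell and in that of *Isca1*.

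Cu/ES was also compared with TCA in both arms, as group C against group D, and these 6 libraries are not those of groups A and B. The same 6 of the 8 genes tested fell past both thresholds, where 53.3% of all genes did so and 11.2% rose, and the median log2 fold change was -1.80 against -1.13 for all genes tested. *Nfs1* had 4.46, 4.05 and 4.88 FPKM in group C against 18.3, 18.5 and 18.5 FPKM in group D, a change of -1.83 ± 0.08 on the log2 scale (SE, limma, adjusted p = 2.01e-11). *Iscu* had 2.31, 3.26 and 1.89 FPKM in group C against 11.3, 9.89 and 10.9 FPKM in group D, a change of -1.76 ± 0.14 on the log2 scale (SE, limma, adjusted p = 1.80e-08). *Hscb*, with 1.68, 1.16 and 1.22 FPKM in group C against 9.02, 9.82 and 9.25 FPKM in group D, was 6.92-fold lower. The desulfurase, the scaffold and the co-chaperone thus all stood lower in every library of group C. The share of all genes that did so is not given for this comparison.

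*Isca2* had 8.08, 14.2 and 10.7 FPKM in group C against 26.9, 23.4 and 28.4 FPKM in group D, a change of -1.21 ± 0.14 on the log2 scale (SE, limma, adjusted p = 1.37e-06). *Nfu1*, with 2.33, 1.93 and 1.90 FPKM against 21.7, 18.1 and 21.5 FPKM, was 9.95-fold lower, a change of -2.81 ± 0.10 on the log2 scale (SE, limma, adjusted p = 1.76e-12). *Bola3* had 0.0773, 0.221 and 0.129 FPKM in group C, which is 7 to 24 reads, against 4.71, 3.87 and 4.19 FPKM in group D. By fold of the means this was the widest gap of the 9 genes in any comparison, 29.9-fold, with a change of -2.20 ± 0.09 on the log2 scale (SE, limma, adjusted p = 1.44e-11) and little precision left in the group C values. *Iba57* had 0.287, 0.262 and 0.277 FPKM in group C against 1.56, 1.60 and 1.53 FPKM in group D, 5.66-fold lower, and fell in the fit without a filter (log2 fold change -1.01, limma, adjusted p = 7.79e-08).

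Neither *Glrx5* nor *Isca1* passed here. *Glrx5* had 24.3, 29.1 and 27.1 FPKM in group C and 26.8, 23.5 and 19.7 FPKM in group D, with overlap, a log2 difference of 0.20 (95% interval -0.02 to 0.42, limma, adjusted p = 0.0797). It passed without C replicate 1 (0.27, limma, adjusted p = 0.0357) and without D replicate 1 (0.30, limma, adjusted p = 0.0131). *Isca1* had 19.3, 20.8 and 23.8 FPKM in group C and 20.5, 19.0 and 20.05 FPKM in group D, a log2 difference of 0.09 (95% interval -0.07 to 0.25, limma, adjusted p = 0.264). Under median-ratio scaling *Glrx5* (1.53) and *Isca1* (1.41) rose past both thresholds, as 27.8% of all genes did, 3 members fell past both, as 25.0% did, and *Isca2* turned positive (0.10).

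**Figure D2:**
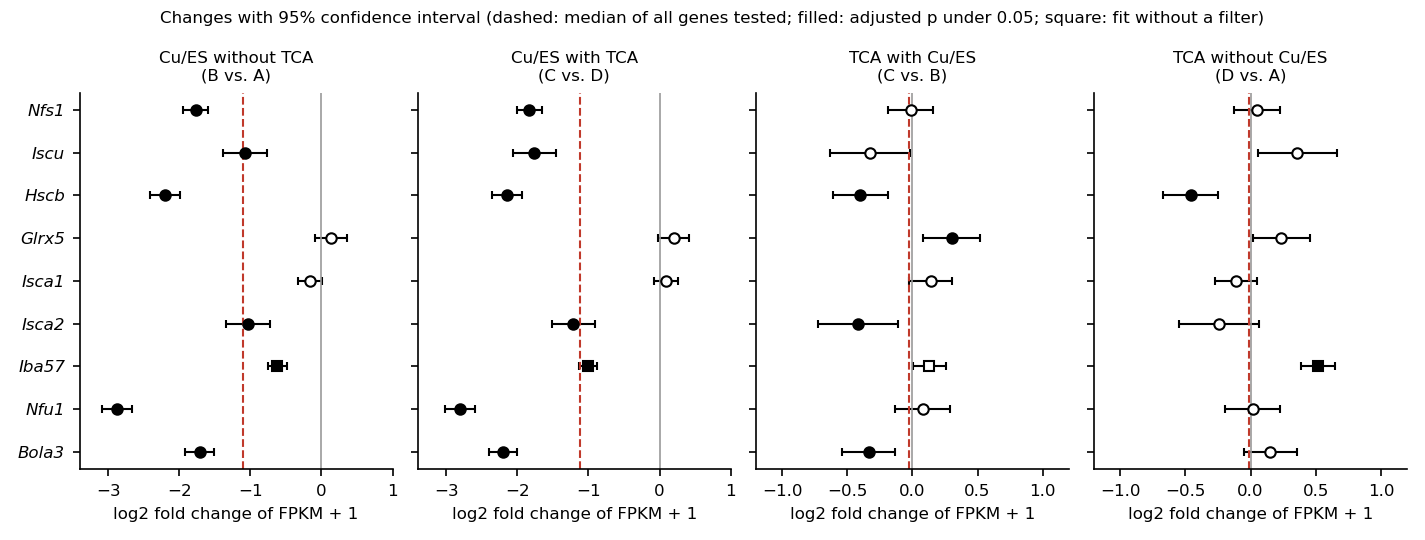
Log2 fold change of FPKM + 1 (x axis) of each gene (y axis) in the 4 comparisons, with 95% confidence intervals from limma. Filled symbols have an adjusted p under 0.05, squares come from the fit without a filter, and the dashed line is the median of all genes tested, at -1.10 for B vs. A and -1.13 for C vs. D. *Nfu1*, *Hscb*, *Nfs1* and *Bola3* lie left of that line in both Cu/ES comparisons, and *Glrx5* and *Isca1* lie near 0.

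The addition of TCA to Cu/ES, group C against group B, addressed whether the bile acid altered these transcripts in cells given Cu/ES. None of the 8 genes tested passed both thresholds with limma, while 3 fell and 1 rose at an adjusted p under 0.05, and 5 had an unadjusted p under 0.05. Of all genes tested 2.29% passed both thresholds and 44.0% the adjusted p, 23.6% lower and 20.4% higher. Because adjustment only raises p-values, at least 44.0% of all genes also had an unadjusted p under 0.05. *Hscb* fell from 2.09 ± 0.198 FPKM in group B to 1.35 ± 0.284 in group C (SD over 3 libraries), a change of -0.40 ± 0.10 on the log2 scale (SE, limma, adjusted p = 0.00451), on 33 to 41 reads per library in group C. It did not pass with limma-voom on the recovered reads (-0.65, adjusted p = 0.117). *Bola3* fell 3.11-fold, from 0.444 ± 0.114 FPKM in group B to 0.143 ± 0.0728 in group C (SD over 3 libraries), a change of -0.34 ± 0.09 on the log2 scale (SE, limma, adjusted p = 0.0101), and all group C libraries were below all group B libraries, as in 27.2% of all genes. *Bola3* passed both thresholds once the pseudocount was 0.1 or limma-voom was run on the recovered reads.

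*Isca2* fell (log2 fold change -0.42, limma, adjusted p = 0.0294), and *Glrx5* rose from 21.6 ± 1.54 FPKM in group B to 26.8 ± 2.41 in group C (SD over 3 libraries), or by 0.30 on the log2 scale (limma, adjusted p = 0.0294). Neither call held under every setting. That of *Isca2* was lost without B replicate 1 or 2 or C replicate 1 or 3, reaching -0.23 without C replicate 1 (limma, adjusted p = 0.135). That of *Glrx5* was lost without B replicate 1 or 2 or C replicate 2 or 3, with adjusted p-values of limma between 0.0144 and 0.102 over the fits that left out a library. Without a filter on low values neither passed (limma, adjusted p = 0.0979 for *Isca2* and 0.0780 for *Glrx5*), nor did they under quantile normalization (0.0564 and 0.0887). The call of *Isca2* was also lost under median-ratio scaling (0.0735), with only the groups compared (0.0832) and with limma-voom (0.0668). For *Iscu* the log2 difference was -0.33 (95% interval -0.63 to -0.02, limma, adjusted p = 0.0777), and it passed without B replicate 1 (-0.47) or C replicate 2 (-0.48). For *Iba57*, in the fit without a filter, the log2 difference was 0.13 (95% interval 0.00 to 0.26, limma, unadjusted p = 0.0480, adjusted p = 0.160), and it passed under median-ratio scaling (0.20, adjusted p = 0.0218). *Nfs1* (-0.01, 95% interval -0.19 to 0.16) and *Nfu1* (0.08, 95% interval -0.13 to 0.29) lay near 0 on the scale of log2(FPKM + 1). With limma-voom on the recovered reads (filter on reads chosen after the data were seen) the intervals were wider. They ran from -0.32 to 0.28 for *Nfs1* and from -0.43 to 0.65 for *Nfu1*, which leaves room for a change either way.

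TCA without Cu/ES, group D against group A, moved few members. *Hscb* was the only tested member to fall past the adjusted p, where 11.5% of all genes fell. It had 9.02, 9.82 and 9.25 FPKM in group D, all below the 12.1 to 13.97 FPKM of group A, a change of -0.46 ± 0.10 on the log2 scale (SE, limma, adjusted p = 0.00523). *Iba57* went the other way. Its 1.56, 1.60 and 1.53 FPKM in group D were all above the 0.655 to 0.891 FPKM of group A, and the mean was 1.97-fold higher. In the fit without a filter, in which 3.66% of genes rose, the change was 0.52 ± 0.06 on the log2 scale (SE, limma, adjusted p = 0.00118), and with limma-voom on the recovered reads it was 0.99 (adjusted p = 9.96e-04). *Iscu* was higher by 0.36 on the log2 scale (95% interval 0.05 to 0.66) and did not pass (limma, adjusted p = 0.0852), although it did with limma-voom on the recovered reads (0.40, adjusted p = 0.0288). The other 6 genes of the fit had log2 differences from -0.24 for *Isca2* to 0.24 for *Glrx5*, of which that of *Glrx5* passed without D replicate 3 (0.35, limma, adjusted p = 0.0335).

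Whether TCA acted differently with and without Cu/ES was tested by the interaction term of the same fit. Of the 8 genes tested 2 passed the adjusted p, as 37.5% of all genes did. For *Iscu* the effect of TCA with Cu/ES was lower than that without by 0.69 on the log2 scale (interaction -0.69, standard error 0.20, limma, adjusted p = 0.0163), and for *Bola3* the interaction was -0.49 (standard error 0.13, limma, adjusted p = 0.0112). *Iscu* was 1.32-fold higher in group D than in group A and 1.35-fold lower in group C than under Cu/ES alone. *Iba57* had an interaction of -0.39 in the fit without a filter (limma, adjusted p = 0.0107), where 15.9% of all genes passed, and which did not pass with limma-voom on the recovered reads (-0.24, adjusted p = 0.712), so that it holds for differences of log2(FPKM + 1) and was not shown for fold changes. The interactions of the other genes lay between -0.18 for *Isca2* and 0.25 for *Isca1* (limma, adjusted p = 0.519 and 0.0811).

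Ratios of genes within a library do not depend on how libraries are scaled, and 4 were formed after the values were seen. *Isca1* to *Isca2*, whose proteins act together, was 0.762, 0.680 and 0.639 in the untreated libraries and 0.762, 0.811 and 0.705 in those with TCA alone. It was 1.32, 1.17 and 1.43 with Cu/ES and 2.39, 1.46 and 2.22 with Cu/ES and TCA. Groups B and A did not overlap, nor did groups C and D or groups C and B. The geometric mean of the ratio (its mean on the log2 scale) was 1.88-fold higher in group B than in group A. It was 1.52-fold higher in group C than in group B. *Glrx5* to *Nfu1* was 0.973 ± 0.0814 and 1.15 ± 0.206 in groups A and D, and 11.5 ± 1.33 and 13.2 ± 2.48 in groups B and C (SD over 3 libraries). By geometric mean, this ratio of an early carrier to a late one thus stood 11.8-fold and 11.5-fold higher with Cu/ES. *Nfu1* to *Bola3* was 5.43 ± 0.678 in untreated cells and 4.54 ± 1.62 with Cu/ES, with overlap, and 30.1, 8.72 and 14.7 in the libraries of group C, where *Bola3* had few reads. *Nfs1* to *Iscu* had means of 2.20 ± 0.0964, 1.39 ± 0.297, 1.92 ± 0.667 and 1.73 ± 0.124 in groups A, B, C and D. Where groups of 3 did not overlap, the exact two-sided permutation test gave p = 0.1, the smallest that 3 against 3 allow.

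**Figure D3:**
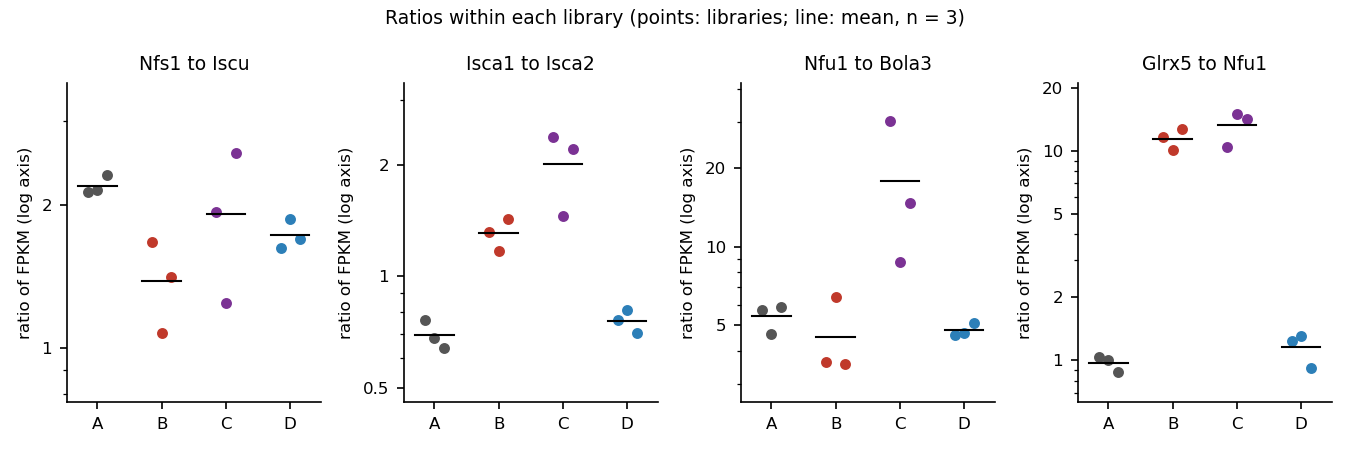
Ratio of FPKM between 2 genes within each library (y axis, log scale) in groups A, B, C and D (x axis), with a point for each library and a line at the mean (n = 3). *Glrx5* to *Nfu1* is near 1 in groups A and D and above 10 in every library of groups B and C, and *Isca1* to *Isca2* is below 1 in groups A and D and above it in groups B and C.

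The summed level of the 9 genes was 136 ± 2.03, 67.9 ± 2.19, 69.8 ± 6.32 and 134 ± 6.48 FPKM in groups A, B, C and D (SD over 3 libraries). *Isca1* and *Glrx5* together held 30.2% of that sum in group A and 32.2% in group D. In groups B and C they held 60.0% and 68.9%. These 2 were picked after the values were seen, as the members that did not fall, so a larger share under Cu/ES follows from that choice. Outside the lists used here, *Naaa*, *Nup37* and *Ifnar2* had the pattern most like the mean of the 8 tested members over the 12 libraries (Pearson's r of log2(FPKM + 1) = 0.999 for each). With the libraries in well separated sets, 5141 genes reached r = 0.95, so this likeness is common to much of the table.

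The direct partners of the core machinery were examined next, and 13 of 14 listed genes were tested. Here and in the lists below, the leading falls and rises are ranked by log2(FPKM + 1), which understates genes with low values. Between groups B and A 11 fell past both thresholds, where 53.0% of all genes did (median -1.74 on the log2 scale, against -1.10 over all genes). Between groups C and D 11 fell and 1 rose, where 53.3% of all genes fell and 11.2% rose (median -1.85 against -1.13). *Lyrm4*, which encodes the small protein that stabilizes NFS1, had 4.37, 4.21 and 4.94 FPKM in group A and 0.440, 0.854 and 0.661 FPKM in group B, a log2 fold change of -1.74 (limma, adjusted p = 7.75e-09). *Ndufab1*, the acyl carrier protein bound by *Lyrm4*'s product, fell by 1.73 on the log2 scale in group B and, alone among the tested partners, by a further 1.04 past both thresholds in group C (limma, adjusted p = 1.19e-05). On the FPKM scale, then, *Nfs1*, *Iscu*, *Lyrm4* and *Ndufab1*, whose products meet in the assembly complex, all fell.

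Electrons for cluster assembly come from ferredoxin and its reductase. *Fdxr*, the reductase, had 10.6, 10.3 and 12.1 FPKM in group A and 2.81, 2.33 and 2.68 FPKM in group B, a log2 fold change of -1.74 (limma, adjusted p = 3.35e-10). *Fdx2*, the ferredoxin of cluster assembly, was below the filter on low values, with 0.129, 0.223 and 0.380 FPKM in group A, which is 4 to 12 reads, and 1.64, 1.36 and 1.09 FPKM in group B. It was higher in every group B library, and with limma-voom on the recovered reads it rose (log2 fold change 2.51, adjusted p = 1.36e-04). *Hspa9*, the mitochondrial HSP70 that HSCB serves, had 293, 271 and 312 FPKM in group A and 454, 472 and 458 FPKM in group B, a log2 fold change of 0.66 (limma, adjusted p = 3.69e-07), and its nucleotide exchange factor *Grpel1*, named after its values were seen, rose by 0.96 (limma, adjusted p = 6.53e-09). *Grpel1* passed both thresholds between groups C and D (1.05). *Hscb* and the chaperone it serves thus changed in opposite directions.

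The falls that led the partner list between groups B and A were those of *Bola1* (-2.64), a relative of *Bola3*, of the iron importer *Slc25a28* (-2.55), and of *Nubpl* (-2.11), which serves complex I. Between groups C and D they were led by *Ndufab1* (-2.84) and *Slc25a28* (-2.39). Under median-ratio scaling the list's median between groups B and A was -0.62. On that scale 10 genes fell and 2 rose at the adjusted p, as 43.8% and 44.0% of all genes did.

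The cytosolic assembly machinery makes clusters for cytosolic and nuclear proteins. Of its 11 genes 2 fell past both thresholds between groups B and A, against 53.0% of all genes, and the median of the list was -0.75. The 2 genes were *Ciao2a* (-2.62) and *Mms19* (-1.60), which act in handing clusters to their targets. Between groups C and D 5 fell, against 53.3% of all genes, with a median of -0.97, led by *Ciao2a* (-3.03), *Mms19* (-1.64) and the glutaredoxin *Glrx3* (-1.37). Under median-ratio scaling the direction of the list turned, with a median of 0.43 between groups B and A and 8 of 11 genes higher at the adjusted p, as were 44.0% of all genes. The difference between the mitochondrial and cytosolic lists was not tested.

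Of 14 mitochondrial proteins that carry clusters, the transcripts of 11 fell past both thresholds between groups B and A, against 53.0% of all genes, and all 14 fell at the adjusted p, where 72.0% of all genes tested did, with a median of -1.37. The falls by log2(FPKM + 1) were led by *Ndufv2* (-2.73) and *Ndufs7* (-2.17), subunits of complex I, and *Etfdh* (-2.16), which feeds electrons from fatty acid oxidation to ubiquinone. With limma-voom on the recovered reads (filter on reads chosen after the data were seen) *Cdk5rap1* (-3.27), also of this list, lay below *Ndufv2* (-2.87). Between groups C and D 13 of 14 fell past both thresholds, against 53.3% of all genes, with a median of -1.69, led by *Ndufv2* (-3.15), *Cisd1* (-2.54) and *Lias* (-2.26). *Cisd1*, a cluster protein of the outer mitochondrial membrane, was the only gene of this list past both thresholds between groups C and B, where it went from 12.4, 11.9 and 11.2 FPKM to 3.56, 6.35 and 4.36 FPKM (log2 fold change -1.18, limma, adjusted p = 2.67e-05). Under median-ratio scaling the median between groups B and A was -0.08, with 6 genes lower and 5 higher at the adjusted p (43.8% and 44.0% of all genes). On that scale these clients had no common direction in that comparison. Between groups C and D the median on that scale was -0.54, with 9 genes lower and 1 higher at the adjusted p. Of the 10615 genes tested, 4704 were lower and 4709 higher there.

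Among 18 tested cluster proteins of the cytosol, endoplasmic reticulum and nucleus, 8 fell and 1 rose past both thresholds between groups B and A, where 53.0% of all genes fell and 10.1% rose (median -0.90). *Elp3* (-3.53) of tRNA modification, *Nthl1* (-2.70) of base excision repair and *Dph1* (-2.47) of diphthamide synthesis fell most. *Brip1*, a DNA helicase, had 2.76, 2.89 and 2.68 FPKM in untreated cells and 2.35, 2.45 and 2.20 FPKM with TCA alone, but 11.9, 12.6 and 13.9 FPKM with Cu/ES and 26.0, 24.3 and 28.2 FPKM with Cu/ES and TCA. It rose past both thresholds between groups B and A (1.87) and between groups C and D (3.03). Between groups C and D 9 fell, against 53.3% of all genes, with a median of -0.94, led by *Elp3* (-4.09), *Dph1* (-3.00) and the cytosolic aconitase *Aco1* (-2.47). Under median-ratio scaling 6 genes were lower and 9 higher between groups B and A at the adjusted p (43.8% and 44.0% of all genes), with a median of 0.18.

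Lipoylation depends on clusters through lipoic acid synthase, the product of *Lias*. Of 10 tested genes of this list 7 fell past both thresholds between groups B and A and 8 between groups C and D, against 53.0% and 53.3% of all genes, with medians of -1.37 and -1.73. *Mcat* (-2.68), which starts mitochondrial fatty acid synthesis, *Dbt* (-2.36), a lipoylated subunit, and *Lias* (-2.08) fell most between groups B and A by log2(FPKM + 1). Between groups C and D *Dbt* (-2.31), *Lias* (-2.26) and *Mcat* (-2.07) did so. *Lipt2* of the same list had 101 to 164 reads per library in group A and 0 in every group B library. With limma-voom on the recovered reads (filter on reads chosen after the data were seen) *Lipt2* (-7.78) lay below *Mcat* (-3.67) between groups B and A. Between groups C and D *Lipt2* (-6.60) lay below *Dbt* (-3.35) with it. Under median-ratio scaling the median between groups B and A was -0.10, with 4 genes lower and 2 higher at the adjusted p (43.8% and 44.0% of all genes). Between groups C and D it was -0.60 on that scale, with 8 genes lower and 2 higher at the adjusted p. Of the 10615 genes tested, 4704 were lower and 4709 higher there. Between groups D and A 1 of the partners, 1 of the cytosolic machinery and 5 of the cytosolic and nuclear clients fell at the adjusted p of limma, as 11.5% of all genes did. In the same comparison 2 of the cytosolic machinery, 4 of those clients and 1 of the lipoylation list rose, as 10.5% of all genes did.

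**Figure D4:**
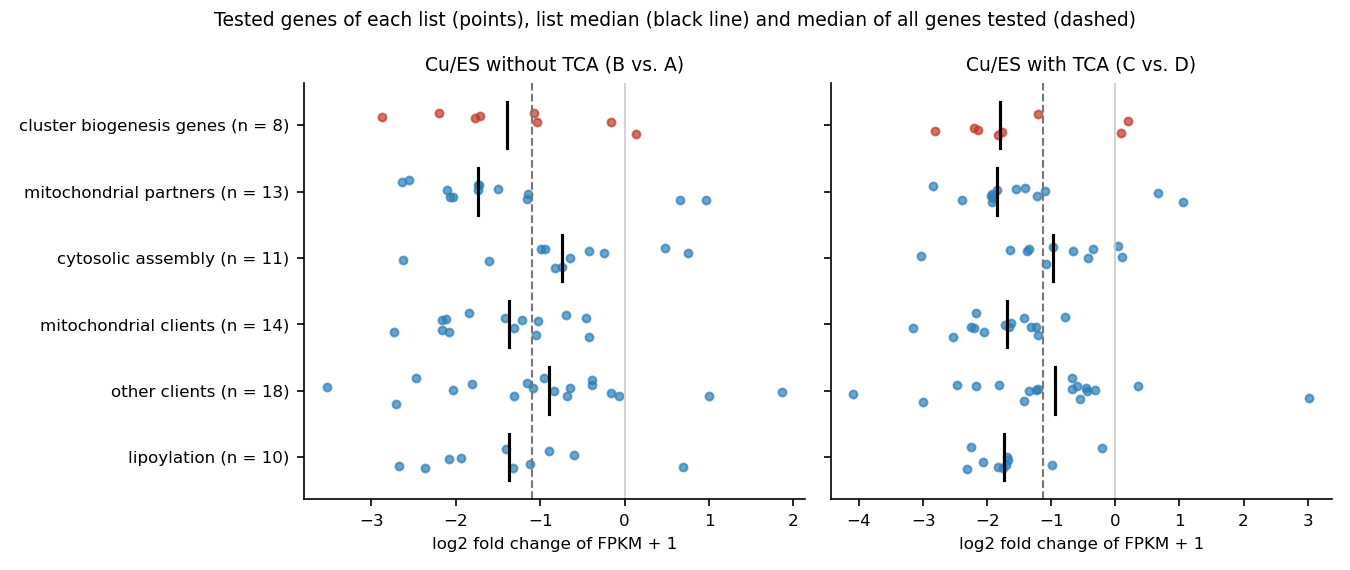
Log2 fold change of FPKM + 1 (x axis) of every tested gene of 6 lists (y axis) between groups B and A and between groups C and D, with a black line at the median of each list and a dashed line at the median of all genes tested. The medians of the cluster biogenesis genes, their mitochondrial partners, the mitochondrial clients and the lipoylation genes lie left of the dashed line in both panels, and that of the cytosolic machinery lies right of it.

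In 2 members the count may hold reads of a neighbour, because exons overlap in the GRCm38 annotation and the strand setting of the counting is not given in the sources used here. *Nfs1* overlaps *Romo1* on the opposite strand, which stood at 54.0, 57.5 and 52.0 FPKM in group A and 14.97, 10.9 and 13.8 FPKM in group B. *Isca1* overlaps *Etohd2* on the opposite strand.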

How the data were processed

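Libraries of polyadenylated RNA from AML12 cells (VAHTS kit, 3 in each of 4 groups) were sequenced on an Illumina instrument, and the authors deposited FPKM values, with replicates kept apart. The submitters' processing notes name fastp, HISAT2, HTSeq and build GRCm39. Versions and strand settings are not given in the sources used here. Because the annotation used here is GRCm38, gene coordinates other than the promoter windows were left out.

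The sample labels gave groups and doses. Genes with a mean of at least 1 FPKM were fitted as log2(FPKM + 1) in all 12 libraries with limma 3.58.1 (R 4.3.3), with group means, a mean-variance trend, 8 residual degrees of freedom and Benjamini-Hochberg adjustment. The deposited values are FPKM, so limma was used here in place of the study's count model, and the study's thresholds (adjusted p under 0.05, absolute log2 fold change above 1) were kept. Reads were recovered from the spacing of the values (22212 of 22212 genes above 0 in at least 2 libraries, within 0.005 of a whole number) and used in limma-voom. Like those of limma, the p-values of limma-voom measure the spread between libraries. On data simulated for groups B and A (10615 genes), 200 genes with ample reads were lowered and the rest were left unchanged. There limma recovered 98% of genes changed 2-fold and 100% of those changed 4-fold, with 8 false calls. In the deposited data most genes moved and some members had few reads, so these figures cannot be carried over to them.

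The members and lists were chosen with earlier results of these data known. All members and the partners *Lyrm4*, *Fdx2*, *Fdxr* and *Hspa9* are named, as are, per list and comparison, up to 3 rises and 3 falls past both thresholds, and the 3 genes most like the members. Some results on single partner genes are not reported here. *Ndufab1*, *Grpel1*, *Lipt2* and *Cdk5rap1* outside that rule were chosen after the values were seen. So were the ratios, the promoters shown and the share of *Isca1* and *Glrx5* in the summed level. The comparisons B vs. A and C vs. D share no library, whereas C vs. B and D vs. A each share libraries with both. Alternatives were another pseudocount, other filters, TPM, median-ratio and quantile scaling, a replicate block, no trend, only the groups compared, limma-voom and each library left out. Tables and plots were made in Python 3.11.15 (numpy 2.4.6, pandas 2.3.3, scipy 1.17.1, matplotlib 3.10.9).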

Additional observations from a re-analysis of the deposited data

Results flagged for a closer look

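TCA had an effect that differed between cells with Cu/ES and cells without it in 2 of the 8 genes tested by the interaction term of limma with Benjamini-Hochberg adjustment, a share below the 37.5% of all genes that passed, and in *Iba57* in the fit without a filter, where 15.9% of all genes passed. It was -0.69 for *Iscu* (adjusted p = 0.0163, and between 0.00177 and 0.0587 over the alternatives, the highest without a filter on low values), with all 3 group D libraries above group A and with groups C and B overlapping. It was -0.49 for *Bola3* (adjusted p = 0.0112, between 0.0052 and 0.0314 over the alternatives), on 7 to 24 reads per library in group C. It was -0.39 for *Iba57* without a filter (adjusted p = 0.0107, between 0.0107 and 0.712 over the alternatives), and fell short of the threshold under median-ratio scaling (-0.20) and with limma-voom on the recovered reads (-0.24).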

How the results depend on the processing

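Over 45 values of single genes and 5 counts of members, the replicate number as a block changed no call, and left 6 members past both thresholds for B vs. A and for C vs. D, 0 in either TCA comparison, and 2 past the adjusted p for the interaction. Deviations from the group means of same-numbered libraries correlated with a mean r of 0.125 (range -0.171 to 0.579 over 18 pairs). Not every pair was above 0.1, so the numbers were not taken to pair the samples. Of the 12 libraries 9 correlated best with their own number, which leaves a shared origin possible. Limma-voom with at least 10 reads in at least 3 libraries, and the fits of *Iba57* that left out a library, used the block or changed the scaling, were added after the data were seen.

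Quantile normalization left 1 member past both thresholds for B vs. A and 2 for C vs. D. Of the 10615 genes tested, 2353 fell and 2198 rose past both for B vs. A. For C vs. D 2448 fell and 2269 rose. Median-ratio scaling left 4 for B vs. A, of which 2 were higher, and 5 for C vs. D, of which 2 were higher. On that scale 24.5% of all genes fell and 26.9% rose past both for B vs. A, and 25.0% and 27.8% for C vs. D. For C vs. B, 1 member (*Bola3*) passed both thresholds under limma-voom with either filter and under a pseudocount of 0.1. A stricter filter of 5 FPKM left 1 member past the adjusted p for the interaction, since it removed *Bola3*. The cause was not tested for the other changes. Leaving out a library gave 5 or 6 members for B vs. A, 6 for C vs. D, 0 in either TCA comparison, and 2 or 3 for the interaction, the third being *Isca1* without C replicate 1 (0.32). *Isca1* also passed for the interaction under TPM scaling (0.339, adjusted p = 0.0489 with limma) and median-ratio scaling (0.298, adjusted p = 0.0435), which makes 3 there.

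Directions turned, on the log2 scale, for *Iscu* B vs. A (0.0427 median-ratio, 0.285 quantile), *Isca1* B vs. A (1.11 median-ratio, 0.61 quantile) and *Isca2* under median-ratio scaling (0.25 B vs. A, 0.10 C vs. D). Under TPM scaling they turned for *Glrx5* (-0.23 B vs. A, -0.0805 C vs. D), *Isca1* C vs. D (-0.19) and *Nfs1* (0.0527 C vs. B, 0.00942 interaction). *Nfs1* C vs. B also turned under median-ratio scaling (0.0382). The interaction turned for *Hscb* (-0.11 with a pseudocount of 0.1, -0.15 with limma-voom under either filter) and *Glrx5* (-0.0388 quantile). Leaving out a library gave -0.0685 to 0.0542 for *Nfs1* C vs. B and -0.0460 to 0.0968 for *Nfu1* D vs. A. For the interaction it gave -0.117 to 0.00515 for *Nfs1*, -0.0374 to 0.122 for *Hscb*, -0.0481 to 0.166 for *Glrx5*, -0.365 to 0.00708 for *Isca2* and -0.0193 to 0.123 for *Nfu1*. *Isca1* B vs. A passed the adjusted p under TPM scaling (-0.53), with only the groups compared and without any 1 library of group C.

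With 3 libraries a group, limma leaves 8 residual degrees of freedom. Depth limits *Bola3*, *Iba57* and *Hscb*. Among the other genes named it limits *Fdx2*, *Lyrm4*, *Dph1*, *Nthl1*, *Nubpl*, *Bola1*, *Mcat*, *Lipt2* and *Cdk5rap1*. All of these had under 50 reads in at least 1 library of group B or C. FPKM carry no measure of total RNA per cell, so that changes are relative to each library's total.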
